A study of Psophocarpus tetragonolobus with 12 samples.

Results

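The week from Day 30 to Day 37 after anthesis was the shortest interval sampled in the maturing pods of winged bean (Psophocarpus tetragonolobus) and the one with the fewest moving genes, which are described here. A gene was taken in when it reached 5 FPKM or more at Day 30 or at Day 37, which 15941 of the 30392 genes in the table did. FPKM, a fragment number scaled by transcript length and by the mapped fragments of the library, is a relative abundance in which each gene competes with all others of its library. The change of a gene was log2((Day 37 + 1)/(Day 30 + 1)) of its FPKM values, and a change of 1 or more in either direction, a 2-fold change on this scale, was counted as a move. Adding 1 understates the change of low genes.

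The pods came from FP15, the purple-podded maternal line of a mapping cross, grown at 26 °C by day and 20 °C by night in a controlled chamber. Pods were taken at 4 ages, 15, 30, 37 and 45 days after anthesis, with 3 libraries per age, each of another plant, and no treatment that separates the stages. The labels give the tissue as pod, whereas the methods name pod and seed tissue, so seed transcripts may be in these RNAs. Reads were placed on the genome of Ma3, the green-podded paternal line, whose gene models were also used. The table holds 1 combined whole-number value per gene and stage and no value per library, so no spread between plants could be computed, no test was possible, and every difference below is a description of these 4 combined values. The only error that could be computed is rounding, which lets each value lie up to 0.5 FPKM either way. A value listed as 0 can be anything below that, and no fold is given against it.

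By mid maturation a legume pod has finished elongating and its wall is being strengthened. Lignin, the phenolic polymer of that wall, and the flavonoids, among them the purple anthocyanins, are both built from phenylalanine. PAL, C4H and 4CL make the shared precursor, CHS and CHI form the flavonoid skeleton, and DFR, ANS and a glucosyltransferase complete a stable anthocyanin that a glutathione transferase helps to bring to the vacuole. Laccases couple the lignin monomers in the wall. The seeds inside meanwhile pass from cell division to the storage of globulins and albumins and then to the maturation programme that precedes drying.

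Most of the pod transcriptome stood still in this week. The median change over the 15941 genes was 0.00 on the log2 scale, the quartiles were -0.14 and 0.17, and 91.6% of the genes stayed within 1.5-fold. A rise of 2-fold was found for 228 genes, or 1.43%, and a fall of 2-fold for 174 genes, or 1.09%. With the same filter applied to the 2 stages of each interval, 2.52% of the genes moved in either direction from Day 30 to Day 37, against 19.1% of 16918 genes in the 15 days before and 4.03% of 15902 genes in the 8 days after. Changes of 4-fold were fewer still, with 26 genes higher and 5 lower at Day 37.

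The share of genes that moved differed with their level. Among genes whose higher value lay from 5 to below 10 FPKM, 4.71% moved, while the share was 1.79% from 10 to below 50 FPKM, 2.30% from 50 to below 500 FPKM and 3.16% of the 158 genes at 500 FPKM or more. The rising genes had a median of 4 FPKM before and 12.5 FPKM after the week, and the falling genes 13 and 5 FPKM. A move sat exactly at 2-fold in 61 of the rises and 53 of the falls, and 140 rises (0.878%) and 91 falls (0.571%) were 2-fold for every pair of values that would round to the deposited ones. Just outside the call, the largest rise not counted was 0.98 and the largest fall -0.98. At the edge of the filter, 753 genes had a higher value of exactly 5 FPKM and 849 genes, left out, of 4 FPKM.

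**Figure D1:**
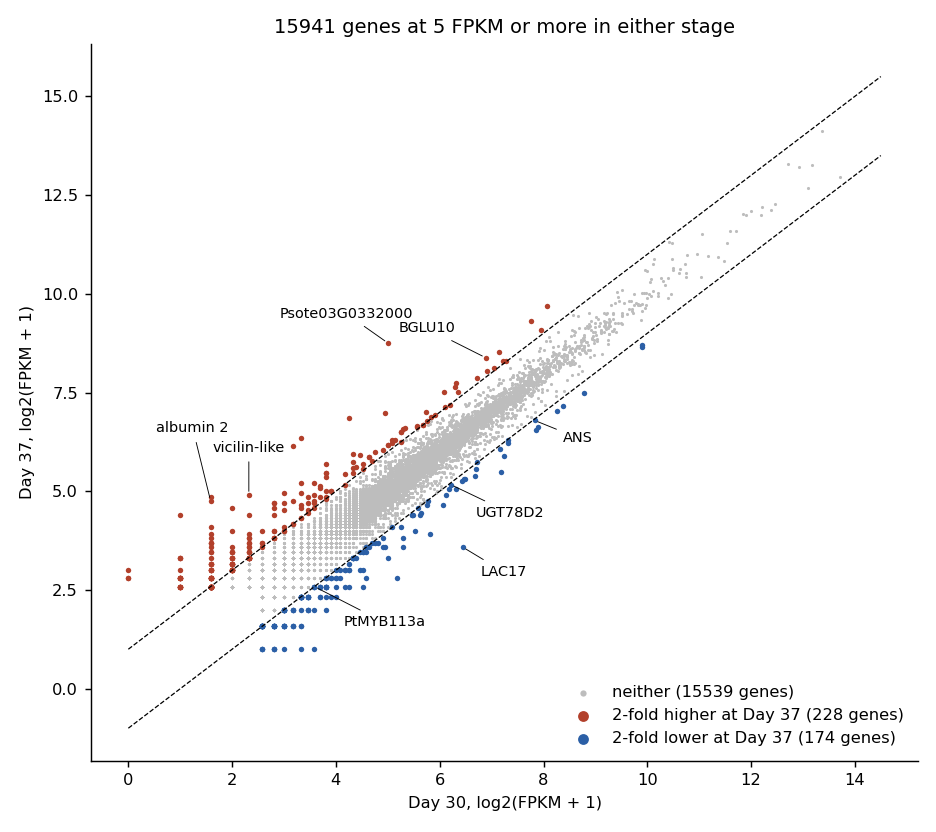
Day 37 (vertical axis) against Day 30 (horizontal axis), both as log2(FPKM + 1), with 1 point per gene for the 15941 genes at 5 FPKM or more in either stage; dashed lines mark a 2-fold change. The 228 genes that rose (red) and the 174 that fell (blue) lie outside the lines around the grey band of 15539 genes that did neither, and LAC17 lies far below the lower line.

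Of the 228 genes that rose in this week, 120 (52.6%) had also risen 2-fold from Day 15 to Day 30, 15 (6.58%) had fallen 2-fold, and 93 (40.8%) had done neither. Over all 15941 genes the corresponding shares were 9.67% up and 5.48% down. That most risers had risen before held at this filter and scale but not under all alternatives: with equal stage sums it was 79 of 162, with rounding allowed for 63 of 140, and with a filter of 1 FPKM 141 of 780. The 120 genes that continued their rise had medians of 1, 9, 26 and 45 FPKM through the 4 stages, and 111 of them were higher at each stage than at the one before. The 15 that reversed an earlier fall had medians of 17, 4, 12 and 10 FPKM, and at Day 37 10 of them were below their Day 15 value, 1 equal to it and 4 above. Both changes of a gene use its Day 30 value, so an error in that value moves them in opposite directions.

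The genes that fell were more evenly divided by count. Of the 174, 66 (37.9%) continued a 2-fold fall, 46 (26.4%) reversed a 2-fold rise, and 62 (35.6%) had done neither before. Over all 15941 genes 5.48% had fallen 2-fold from Day 15 to Day 30 and 9.67% had risen, so the earlier falls stand further above their share. The continuing group had medians of 59, 12, 4 and 2 FPKM through the 4 stages, a decline to near the lowest listed values. The reversing group had medians of 2, 18, 6.5 and 5 FPKM, and 43 of its 46 genes had their highest value of the 4 stages at Day 30. From Day 15 to Day 45, a change that uses neither Day 30 nor Day 37, 181 of the 228 rising genes were 2-fold higher and 13 lower, where 13.6% and 10.9% of all 15941 genes were. The genes were still chosen by Day 30 and Day 37, so this comparison is not independent of the choice. Only 104 of the 228 rising and 93 of the 174 falling genes reached 5 FPKM in both of those stages, where 15011 of the 15941 did. Of the 174 falling genes, 124 were 2-fold lower and 18 higher at Day 45 than at Day 15.

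**Figure D2:**
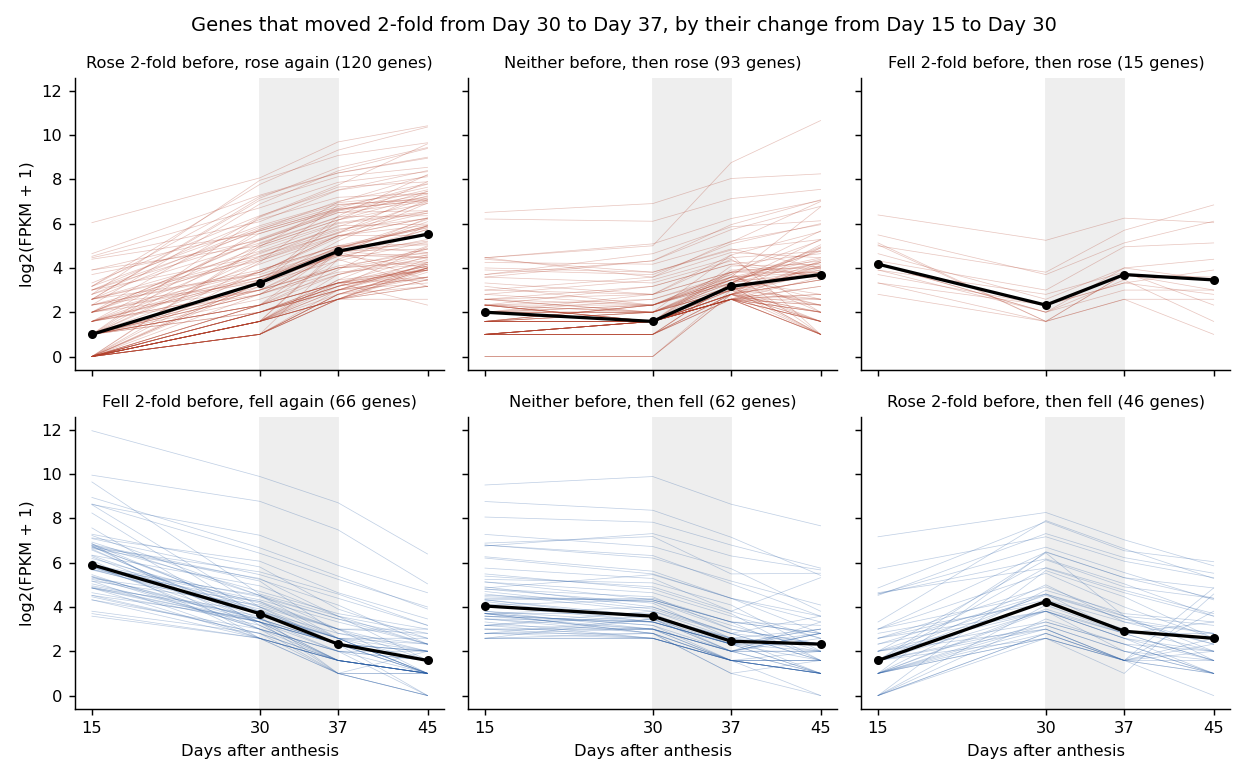
Each panel shows log2(FPKM + 1) against days after anthesis for 1 group of moving genes, with a thin line per gene, the median in black and the week from Day 30 to Day 37 shaded. The largest group, 120 genes, rose up to Day 30 and again up to Day 37. In 46 genes a rise up to Day 30 was followed by a fall to Day 37, and in 15 genes a fall by a rise.

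Named genes came from the study's supplementary tables, which give names for a part of the genome, mostly through matches to Arabidopsis or soybean, so a name below is the name of the match. Of 423 genes in 19 lists drawn from those tables, 254 passed the filter. Of these 254, 16 rose (6.30%), 9 fell (3.54%) and 229 did neither, and their median change was 0.00. Over all 15941 genes 1.43% rose, 1.09% fell and the median was 0.00, values to hold beside the counts of each list below. The tables were built around seed protein and pigment, so their counts do not describe the genome. Genes carried by 2 lists are counted under both. Where 4 values are given for a gene they follow the order of the stages, from Day 15 to Day 45.

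Seed protein genes gave 6 of the 16 rises among listed genes. Of these, Psote04G0317000, Psote01G0296200, Psote04G0062600 and Psote04G0281900 were below 5 FPKM at Day 30 and passed the filter only through Day 37. With 5 FPKM required in both stages, their rises were not counted. Of 25 listed globulin and seed maturation genes, 11 passed the filter and 10 were at 0 FPKM in both stages. Of the 11, 4 rose and none fell, where 1.43% and 1.09% of all 15941 genes did. Their median change was 0.14. The gene matched to vicilin and the alpha subunit of beta-conglycinin, a storage globulin of legume seeds (Psote04G0317000, Chr04.3, 15746247 to 15748526), had 0, 4, 29 and 58 FPKM, a rise of 2.58 on the log2 scale that continued its earlier one. The median over all 15941 genes was 19 FPKM at Day 30 and at Day 37. A globulin-1-like gene (Psote01G0296200, Chr01.5, 10411297 to 10413882) had 2, 2, 16 and 17 FPKM and a change of 2.50, so that it switched within this week and then held its level.

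Genes of the maturation programme moved with them. A seed maturation protein gene (Psote04G0062600, Chr04.1, 11435996 to 11436897) was listed at 0, 0, 7 and 32 FPKM and is 1 of only 3 rising genes that were at 0 at Day 30. The gene for an 18 kDa seed maturation protein (Psote05G0226200, Chr05.3, 3463075 to 3463873) had 31, 13, 51 and 114 FPKM, a rise of 1.89 that reversed a 2-fold fall. The group did not move as one. The 13S globulin gene Psote03G0078700, a storage protein match, was the highest of the 11 at Day 15 and had 148, 68, 48 and 12 FPKM, a change of -0.49 in this week. The lowest change of the list, -0.81, was that of a basic 7S globulin-like gene (Psote05G0235800) with 9, 6, 3 and 2 FPKM.

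Among 18 listed albumin genes 4 passed the filter, of which 2 rose and none fell, with a median change of 0.63. The gene entered as putative albumin 2 (Psote04G0281900, Chr04.3, 6890856 to 6891748), a small seed albumin by its match in pea, had 0, 2, 26 and 10 FPKM. Its rise of 3.17 was the largest of any listed gene on this scale, where the seed maturation protein gene above, at 0 FPKM at Day 30, has no defined fold, and it stood highest at Day 37. A second gene model overlaps it by 487 bases and was at 0 FPKM in all 4 stages. Putative albumin 1 (Psote01G0210100) had 14, 6, 13 and 4 FPKM, exactly at the 2-fold line after an earlier fall; this call was lost when the stages were rescaled or rounding was allowed for. Psote03G0217000, with 20, 13, 13 and 17 FPKM, was level.

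Of 8 putative 2S albumin genes, members of the sulphur-rich seed albumin family, 2 passed and neither moved. Psote06G0099600 had 382, 853, 840 and 786 FPKM, and Psote07G0197200 had 0, 18, 23 and 80 FPKM with a change of 0.34. Among the 34 transcription factors tabulated with the seed proteins, 14 passed and none moved, with a median change of -0.11. The NAC100 matches Psote02G0211300 and Psote06G0259600, of a plant-specific regulator family, had 1, 3, 6 and 15 FPKM and 12, 106, 144 and 173 FPKM, and the HD-ZIP IV gene Psote03G0403200 had 14, 10, 7 and 8 FPKM.

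As markers of seed tissue 8 genes were followed. Their summed level was 179, 90, 138 and 250 FPKM through the 4 stages, 5 of the 8 passed the filter, and 3 of these rose while 1 fell. Psote03G0078700 alone gave 148, 68, 48 and 12 FPKM of this sum, most of it at Day 15 and Day 30, so the sum is no shared trend. Of the 11 globulin and seed maturation genes that passed, 7 were higher at Day 37 by any amount and 4 lower. Over all 15941 genes, 45.2% were higher by any amount and 6379 genes were lower. The abundant 2S albumin gene Psote06G0099600, level in this week, was not among the markers. The number of seed markers listed at 0 was 6, 4, 1 and 0. The defining regulator of seed maturation ABI3 (Psote05G0109800) was at 0, 0, 1 and 1 FPKM, and the 11S globulin gene Psote03G0078800 at 0, 0, 0 and 2 FPKM. The part of a changing share of seed tissue in these values was not tested, and in a bulk sample more cells of a type and more RNA per cell cannot be told apart.

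**Figure D3:**
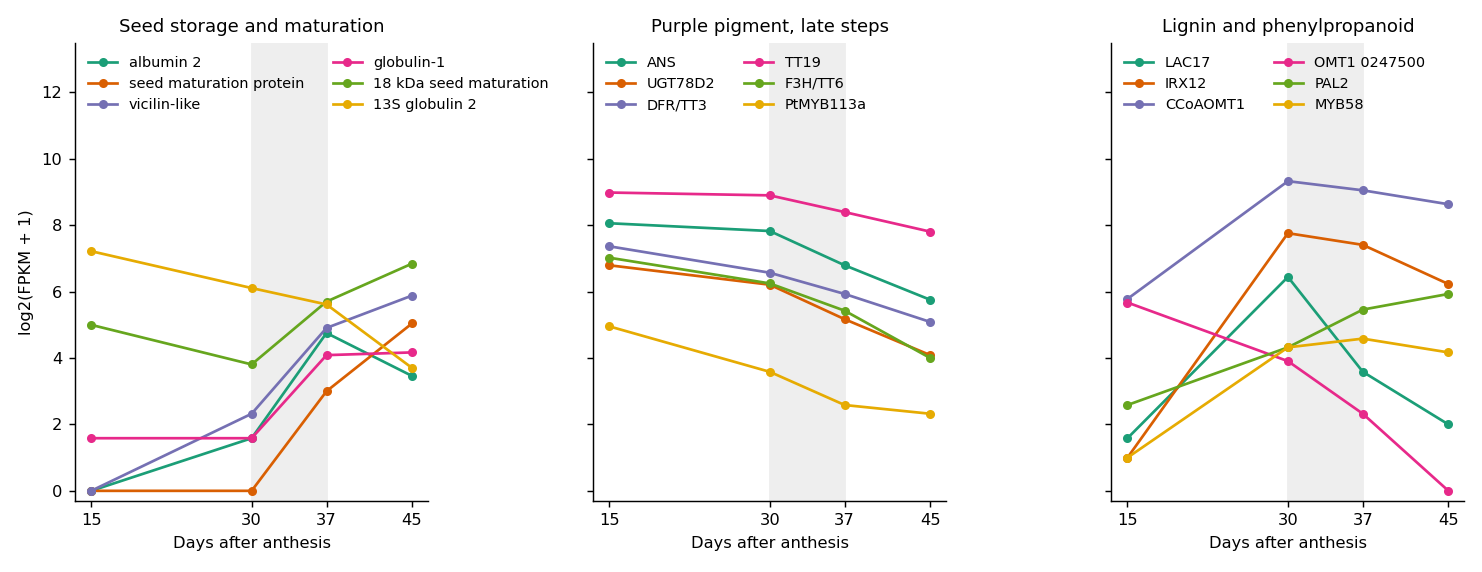
The panels give log2(FPKM + 1) against days after anthesis for seed, purple pigment and lignin or phenylpropanoid genes, 6 genes each with 1 combined value per stage and the week shaded. The vicilin-like gene went from 4 to 29 FPKM in the week, ANS from 226 to 110 FPKM and LAC17 from 86 to 11 FPKM, while IRX12 and CCoAOMT1 stayed within 2-fold.

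A laccase had the largest fall of all 15941 genes on the log2(FPKM + 1) scale. LAC17 (Psote05G0104400, Chr05.1, 15610722 to 15613770), whose Arabidopsis match polymerises lignin monomers in the stem, had 2, 86, 11 and 3 FPKM. It changed by -2.86, and rounding leaves this between -2.93 and -2.79. With a pseudocount of 0.1 the change of LAC17 is -2.96 and that of the low gene Psote09G0143200 is -3.33, so the order rests on the pseudocount. At Day 37 it held 12.8% of its Day 30 level, so that a strong earlier rise was almost entirely undone within 7 days. IRX12 (Psote05G0095400), a second laccase match of secondary walls, had risen alongside it but had 1, 216, 169 and 74 FPKM and changed by -0.35.

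The other lignin genes took different paths. Of 17 genes in the lignin and cell wall list 11 passed the filter; 1 rose and 2 fell, and the median change was -0.28. CCoAOMT1 (Psote03G0183300), a methyltransferase of monolignol synthesis and the most abundant of them, had 54, 642, 530 and 396 FPKM. Several genes matched OMT1, the methyltransferase that acts on monolignol precursors and flavonols. One of them (Psote03G0247500) had 50, 14, 4 and 0 FPKM and changed by -1.58, a continued fall. Another (Psote01G0435000) had 1, 3, 7 and 20 FPKM and sat exactly at the 2-fold line, a call that rescaling or rounding removed. Copies of similar sequence may share reads. How similar the OMT1 matches are, and whether they share reads, was not tested.

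MYB58 (Psote03G0302300), whose Arabidopsis match activates lignin genes, had 1, 19, 23 and 17 FPKM. The 5 markers of lignified tissue summed to 65, 975, 744 and 499 FPKM. CCoAOMT1 alone gave 54, 642, 530 and 396 FPKM of this sum, and MYB58 was higher at Day 37, so the sum is no shared trend. All 5 passed the filter, and LAC17 was the only one of them that moved.

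At the entry of the phenylpropanoid route 1 gene moved and most others stood higher by less than 2-fold. Of 11 PAL, C4H and 4CL genes 10 passed the filter, 1 rose, none fell, and the median change was 0.31. By any amount, 7 stood above their Day 30 value and 2 below, where 45.2% of all 15941 genes were above and 6379 below. PAL2 (Psote04G0075900, Chr04.1, 14742458 to 14758202), which encodes phenylalanine ammonia lyase, had 5, 19, 43 and 60 FPKM and continued its rise with a change of 1.14. PAL1 (Psote04G0213400), by far the more abundant copy, had 75, 342, 425 and 326 FPKM, a change of 0.31. The lowest change, -0.79, was that of a 4CL gene (Psote07G0204400) with 8, 18, 10 and 6 FPKM.

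Of 22 CHS, CHR and CHI genes 16 passed, with a median change of 0.33. By any amount, 11 of the 16 were higher at Day 37, where 45.2% of all 15941 genes were, 4 lower and 1 equal. All 4 lower genes were CHI copies, of which 2 of 6 were higher, while 7 of 8 CHS genes and both CHR genes were higher. The only one that reached 2-fold was a chalcone reductase gene (Psote01G0412700) with 2, 11, 23 and 15 FPKM, exactly at the line, and its call was lost on rescaling. Chalcone reductase works beside CHS in legumes toward 5-deoxy isoflavonoids. The summed CHS level was 129, 341, 458 and 417 FPKM over 8 genes. Most of them lie near each other by their IDs (Psote01G0232100 to Psote01G0233200), while Psote01G0207000 and Psote05G0176800 lie elsewhere. Reads may be shared between copies. The most abundant CHI gene (Psote04G0009600) had 27, 732, 1096 and 885 FPKM and changed by 0.58, while CHI/TT5 (Psote04G0009400) had 73, 41, 28 and 16 FPKM and the lowest change, -0.53.

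The hydroxylases in the middle of the route did not move. Of 18 F3H, F3'H and F3'5'H genes 11 passed and all 11 stayed within 2-fold, with a median change of 0.00. F3H/TT6 (Psote03G0189000) came nearest with 129, 75, 42 and 15 FPKM and a change of -0.82. The most abundant F3H (Psote02G0110700) had 143, 374, 363 and 418 FPKM, and the largest change upward, 0.37, was that of Psote03G0135400, with 26, 81, 105 and 161 FPKM.

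Among the late anthocyanin genes 2 fell. ANS (Psote01G0255900, LDOX/TT18, Chr01.5, 2054487 to 2055851), which forms the coloured anthocyanidin, had 266, 226, 110 and 53 FPKM. Its change was -1.03, Day 37 stood at 48.7% of Day 30, after a change of -0.23 in the 15 days before. UGT78D2 (Psote03G0138100, Chr03.1, 27129444 to 27130781), a flavonoid 3-O-glucosyltransferase that stabilises the pigment, had 110, 73, 35 and 16 FPKM and changed by -1.04. Both stayed past 2-fold for every value that rounds to the deposited ones, but with a pseudocount of 5 UGT78D2 changed by -0.96 and lost its call.

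Other single genes of this branch lay on the same side without reaching 2-fold. DFR/TT3 (Psote08G0200700), the reductase before ANS, had 164, 94, 60 and 33 FPKM and changed by -0.64. The glutathione transferase TT19 (Psote07G0206000) had 506, 477, 336 and 223 FPKM and changed by -0.50. Not all copies did: of the 11 DFR, ANS, LAR, ANR and FLS genes 7 passed, 1 fell and none rose, with a median change of -0.07, and the DFR copies Psote03G0413000 and Psote01G0173100 had 56, 190, 181 and 143 FPKM and 11, 19, 33 and 42 FPKM. The second ANS gene (Psote07G0201100) had 25, 30, 32 and 40 FPKM. The 3 markers of the purple pod, ANS, DFR/TT3 and TT19, summed to 936, 797, 506 and 309 FPKM. TT19 gave most of this sum at each stage, and all 3 were lower at Day 37 than at Day 30. LHCB6 (Psote03G0131300), an antenna protein of photosystem II taken as the marker of green tissue, was level in this week at 283, 267, 264 and 128 FPKM.

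**Figure D4:**
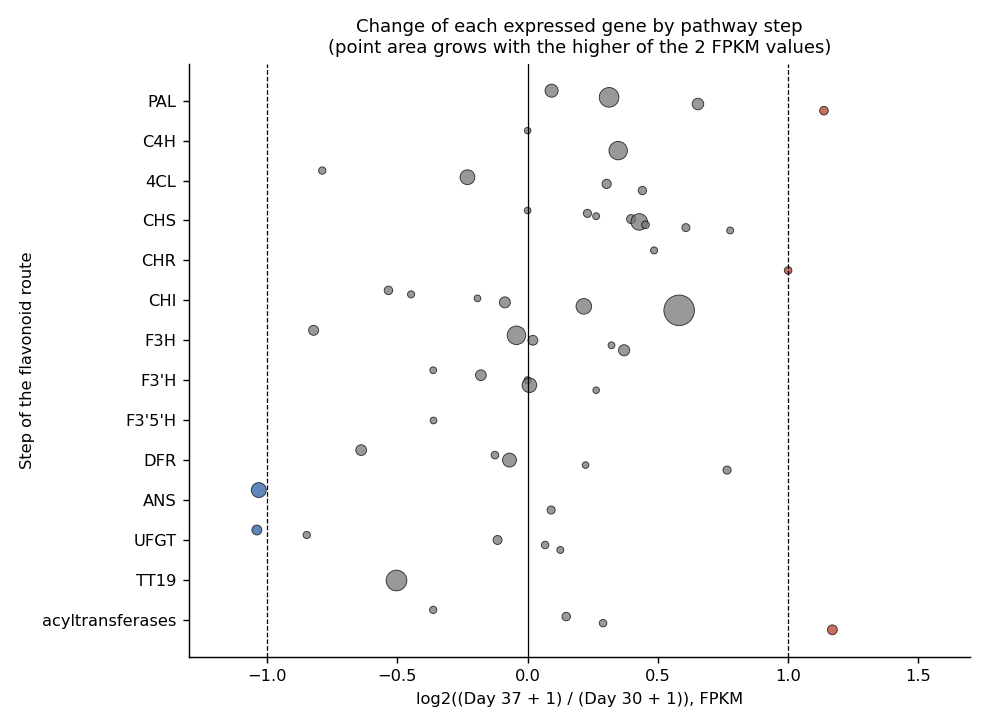
The change from Day 30 to Day 37, log2((Day 37 + 1)/(Day 30 + 1)), is on the horizontal axis for each gene that passed the filter, placed by its step of the flavonoid route on the vertical axis; point area grows with the higher FPKM value, and dashed lines mark 2-fold. PAL2, a CHR and an acyltransferase gene (red) are at or beyond the right line, and ANS at -1.03 and UGT78D2 at -1.04 (blue) beyond the left one.

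Genes that decorate the pigment moved both ways. Of 16 glycosyl- and acyltransferases 11 passed, 2 rose and 1, UGT78D2, fell, with a median change of 0.13. A coumaroyltransferase match (A3Glc:6′′CouT1, Psote03G0355100, Chr03.5, 20784970 to 20788631), of the enzymes that attach a coumaroyl group to anthocyanin glucosides, had 0, 31, 71 and 152 FPKM and changed by 1.17. A second match of this name (Psote09G0046300) had 26, 17, 13 and 9 FPKM. Pt5MAT1 (Psote05G0030500), a malonyltransferase match, had 9, 17, 21 and 23 FPKM. Pt5MAT2 (Psote05G0030400), which the study's table enters under UFGT, where the plot by pathway step also places it, had 22, 51, 47 and 36 FPKM.

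The highest of the rising listed genes was BGLU10 (Psote04G0199300, Chr04.2, 12805390 to 12843018), matched to an Arabidopsis acyl-glucose-dependent glucosyltransferase of anthocyanins. It had 4, 117, 333 and 672 FPKM, a change between 1.49 and 1.51 by rounding that continued its earlier rise. Its model spans 37629 bases and overlaps 3 other models. One of them, Psote04G0199400 (12811701 to 12812690), lies wholly inside it, had 8, 217, 638 and 1317 FPKM and changed by 1.55. Another, Psote04G0199500, shares 4278 bases with it and had 68, 51, 56 and 45 FPKM. The libraries carry no strand and exon positions are not in the table, so how far these models share reads was not tested. In the same stretch of Chr04.2, ABCC4/ABCC14 (Psote04G0199900, 12869716 to 12879765), a match in the family of vacuolar ABC transporters, had 1, 19, 47 and 88 FPKM and changed by 1.26. It was the only one of the 14 flavonoid transport genes, of 18 listed, that moved; their median change was -0.08, TT19 was the most abundant, and ABCC14 (Psote05G0300600) had the lowest change, -0.89, with 36, 25, 13 and 11 FPKM.

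Pigment regulators stood at low levels. Of 14 genes of the MYB, bHLH and WD40 complex, which switches on the late anthocyanin genes, 8 passed the filter. One of them fell, none rose, 7 of 8 were lower by any amount, several by only 1 or 2 FPKM, where 6379 of all 15941 genes were, and the median change was -0.35. PtMYB113a (Psote05G0036500, Chr05.1, 5000035 to 5001407), an R2R3 MYB, had 30, 11, 5 and 4 FPKM and continued its fall exactly at the 2-fold line, a call that rounding can undo. Its neighbour PtMYB113b (Psote05G0036600) had 9, 6, 5 and 6 FPKM, and the bHLH partner TT8 (Psote04G0319200) had 14, 10, 8 and 5 FPKM. The WD40 gene TTG1 (Psote02G0121100), the most abundant of them, was level with 25, 23, 21 and 20 FPKM, and only GL3 (Psote03G0038600), a second bHLH, was higher at Day 37, with 3, 12, 17 and 20 FPKM.

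Among the flavonol MYB, MYB repressor and SPL genes 9 of 15 passed, 1 fell and none rose, with a median change of -0.22. SPL13 (Psote05G0164000), of the family of microRNA156 targets that time phase change in Arabidopsis, had 32, 9, 4 and 3 FPKM, a continued fall at exactly 2-fold. MYB111 (Psote06G0059600), whose Arabidopsis match activates flavonol synthesis, was the most abundant, with 5, 121, 169 and 181 FPKM and the highest change, 0.48.

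Stress and hormone regulators supplied a few of the moves. Of 45 ERF, WRKY, NAC, bZIP and LBD genes 32 passed, 2 rose and 1 fell, with a median change of 0.09. ERF13 (Psote07G0010300), an ethylene response factor match, had 3, 10, 25 and 36 FPKM and continued its rise with a change of 1.24. WRKY40 (Psote03G0413200), a stress response regulator by its match, had 2, 2, 5 and 8 FPKM at exactly 2-fold; it shares 393 bases with another model, Psote03G0413300, which had 3, 3, 11 and 13 FPKM, so its values are uncertain. ERF12 (Psote02G0291400) had 16, 19, 9 and 6 FPKM and fell exactly 2-fold after a level interval. The most abundant of the list, bZIP53 (Psote05G0306600), whose Arabidopsis match activates seed maturation genes, had 260, 270, 318 and 352 FPKM, and PtWRKY70 (Psote05G0080300) had 23, 23, 16 and 25 FPKM.

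Of 27 light and flowering regulators 20 passed, 1 fell and none rose, with a median change of 0.10. UNE10 (Psote06G0098700), a bHLH of the phytochrome-interacting group in Arabidopsis, had 10, 6, 1 and 2 FPKM, a change of -1.81 after no 2-fold change before. The largest change upward, 0.77, was that of AGL3/SEP4 (Psote06G0271900), a MADS-box match, with 15, 16, 28 and 41 FPKM, and the most abundant gene was AG (Psote02G0304400), the MADS-box regulator of carpel identity, with 148, 210, 226 and 199 FPKM.

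The seed protein interval qSSP-1 on Chr03.1, a stretch that the study linked to seed protein content, contributed moves in both directions. Of its 60 listed genes 39 passed, 2 rose and 2 fell, with a median change of 0.00. NIC1 (Psote03G0137200, 27016191 to 27017828), a nicotinamidase match of NAD recycling, had 8, 59, 122 and 165 FPKM and changed by 1.04. The aquaporin match NLM2 (Psote03G0122500) had 0, 3, 9 and 11 FPKM and changed by 1.32. Both continued an earlier rise. On the falling side were UGT78D2, described above, and Psote03G0119900 (22734739 to 22736264), matched to the Arabidopsis cysteine peptidase XBCP3 and counted among the seed markers, with 0, 5, 1 and 23 FPKM. Its fall of 1.58 on the log2 scale reversed an earlier rise and rested on 4 FPKM. The most abundant gene of the interval, Psote03G0113400 (PtSHM1 in the paper), had 590, 1003, 835 and 527 FPKM.

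The remaining lists were level. None of 36 other genes of the pigment table, of 65 listed, moved; their median change was -0.03, ABA4 (Psote09G0055000) with 17, 41, 57 and 74 FPKM had the highest change, GL2 (Psote03G0403200, also listed above as the HD-ZIP IV gene) the lowest, and TRA2 (Psote05G0003200) with 297, 242, 221 and 212 FPKM was the most abundant. Of the 3 branching genes only PtUBP15 (Psote03G0312000) passed, with 24, 14, 15 and 13 FPKM. The reference genes PtELFa (Psote09G0074300) and PtTUB6 (Psote05G0184000) had 707, 608, 556 and 570 FPKM and 354, 656, 549 and 326 FPKM, changes of -0.13 and -0.26.

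Outside the lists lay 212 of the rising and 165 of the falling genes, for which the files and tables used here give no name. On the log2(FPKM + 1) scale the largest rise was that of Psote03G0332000 (Chr03.5, 17056926 to 17060326), with 21, 31, 431 and 1611 FPKM. It had changed by 0.54 up to Day 30 and by 3.75 in this week, and its value was 13.9-fold that of Day 30. Psote04G0106200 (Chr04.1, 21563930 to 21569324) followed with 0, 1, 20 and 8 FPKM and a change of 3.39, highest at Day 37. With a pseudocount of 0.1 it changed by 4.19 and Psote03G0332000 by 3.79, and rounding lets its change lie between 3.04 and 3.84, so the order of these genes is not settled.

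On the falling side, Psote09G0143200 (Chr09.4, 13699009 to 13706627) had 302, 11, 1 and 1 FPKM, a change of -2.58 after one of -4.66 up to Day 30. Psote04G0090700 (Chr04.1, 17897447 to 17899716) had 109, 35, 6 and 3 FPKM and changed by -2.36. Both continued their fall.

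Of the 158 genes at 500 FPKM or more in either stage 5 moved, 3 of them rising and 2 falling, and these were singled out after their values were seen. Psote04G0199400, inside BGLU10, is described above. The other rising genes, with no name, had 65, 267, 825 and 1367 FPKM and 6, 247, 539 and 804 FPKM, and the 2 falling ones 727, 947, 398 and 202 FPKM and 3981, 949, 417 and 83 FPKM. By difference in FPKM, the largest changes were those of genes under 2-fold: none of the 5 largest gains and none of the 5 largest losses was a 2-fold change. These gains made up 19.7% of the summed rise in FPKM and these losses 18.6% of the summed fall. The largest gain, 7294 FPKM, was that of a gene with 1622, 10589, 17883 and 15872 FPKM, a change of 0.76, and the largest loss was that of a gene with 9768, 13416, 7942 and 1492 FPKM, a change of -0.76.

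Moving genes were sometimes neighbours on the chromosome. Of the 228 rising genes 22 (9.65%) lay directly beside another rising gene, a place held by 1.47% of all 15941 genes, and of the 174 falling genes 10 (5.75%) lay beside another falling one, against 1.24%. Of the 11 rising pairs 3, and of the 5 falling pairs 1, were models that overlap each other. Without them 16 rising and 8 falling genes lay beside another. The share of all genes without overlapping models was not computed, so 1.47% and 1.24% are no base for these counts. In 4 places a rising gene lay beside a falling one. Models that overlap another one made up 10.4% of the 402 moving genes and 18.1% of all 15941. Across the 9 chromosomes the share of genes that moved ranged from 1.72% to 3.16%. On the unplaced scaffolds it was 12 of 39 genes, or 30.8%, and in the intervals before and after it was 23.5% of 34 genes and 36.8% of 38 genes, against 19.1% and 3.95% on the chromosomes.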

How the data were processed

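The 12 polyA-selected, non-stranded libraries (3 for each of 4 stages, from different plants) underlie 1 deposited table. Per the labels, reads were handled with fastp, HISAT2 2.0.5 and featureCounts 1.5.0-p3, and the gene IDs and coordinates are those of the study's Ma3 assembly. The order and settings of these tools were not given in the labels. The authors deposited FPKM values of each gene at each stage as whole numbers, a normalised score and not a count. The way in which 3 libraries became 1 value was not stated in any source consulted. All 4 value columns were used and 0 belonged to other samples. No depth per library was used here, so precision is limited by rounding.

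Genes at 5 FPKM or more at Day 30 or Day 37 were kept, and log2((Day 37 + 1)/(Day 30 + 1)) was computed with a pseudocount of 1 (Python 3.11.15, numpy 2.4.6, pandas 2.3.3). A change of 2-fold was counted as a move. With 1 value per stage no test was run. The counting step was tested on simulated data. Members and lists were chosen with earlier results of these data known, and 19 lists came from the study's supplementary tables, of which only names were taken. Named genes were all listed genes that moved, the largest rise, the largest fall and the most abundant member of each list, markers, and the 2 largest rises and falls without a name. Some, not all, of the genes to which the study gives a Pt name were added. Alternatives were other filters, scalings, pseudocounts, thresholds and rounding. The gene table at hand belonged to a different assembly, shared 0 IDs with the file and was not used. Ma3 pods were not analysed here, and no sequence was shown.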

Additional observations from a re-analysis of the deposited data

How the results depend on the processing

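No paired analysis was possible because the table holds 1 combined value per stage, and leaving out single libraries was not possible for the same reason. The direction of all 29 genes checked, the listed genes that moved and the 4 without a name, was kept under each of the 11 alternatives in which the gene passed the filter. For most alternatives it could not have changed. Filters, thresholds, rounding and pseudocounts leave the sign of a change as it is. The factors of Day 30 and Day 37 were 0.988 and 1 for median ratios and 1.025 and 1.048 for sums, too close to reverse a 2-fold change. Only quantile normalization could have reversed a direction. A pseudocount of 0.1 gave the main counts, as it must with whole numbers. The median change over all genes lay between -0.03 and 0.00.

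Counts followed the settings, since many calls sit at 2-fold or at low levels. In each of the following, the order is genes that rose (of these, with an earlier 2-fold rise, 2-fold fall or neither), genes that fell (likewise), and listed genes that rose and fell; counts within 1.5 times of the main one are mostly left out. With 1 FPKM in either stage, 780 genes rose (141 after a rise, 198 after a fall, 441 after neither) and 828 fell (182 after a rise, 275 after a fall, 371 after neither), with 30 and 30 listed genes. With 10 FPKM in either stage, 134 rose (39 after neither) and 109 fell (41 after a fall, 36 after neither). With 5 FPKM in both stages, 104 rose (75 after a rise, 6 after a fall, 23 after neither) and 93 fell (30, 32 and 31), with 9 and 5 listed. With equal sums, 79 rose after a rise and 9 after a fall. With median ratios, 8 rose after a fall. With a pseudocount of 5, 94 rose (47, 6 and 41) and 51 fell (18, 23 and 10), with 10 and 3 listed. At 1.5-fold, 681 rose (387, 82 and 212) and 651 fell (144, 294 and 213). At 4-fold, 26 rose (6, 1 and 19) and 5 fell (1, 3 and 1). With rounding allowed for in both intervals, 140 rose (63 after a rise, 7 after a fall, 70 after neither) and 91 fell (27, 33 and 31).

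Equal sums and median ratios gave 162 and 164 rising and 178 and 174 falling genes, so that the share of rises among the moves was 47.6% and 48.5% in place of 56.7%. The calls of albumin 1, CHR, OMT1 (Psote01G0435000) and WRKY40 were lost under both, and 12 of the 29 with a pseudocount of 5. A filter of 5 FPKM in both stages removed 13 of the 29. Among these were the vicilin-like, globulin-1-like, seed maturation protein (Psote04G0062600) and albumin 2 genes, Psote04G0106200 and Psote09G0143200. A filter of 10 FPKM in either stage removed 7, quantile normalization 6 and a threshold of 4-fold 20. Rounding removed 7 of the 29 calls.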
